A study of Mus musculus with 106 samples.

Results

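Expression of 9 complement genes was followed across 11 mouse tissues kept at 10 °C, 22 °C or 34 °C. The genes were chosen by their symbols, C1qa, C1qb, C1qc, C3, C4b, Cfb, Cfd, Masp1 and Serping1, and all 9 were found in each of the 4 count tables, which together name 25872 genes. The animals were male wild type mice, 8 weeks old at the start, labelled C57BL/6 in the cold experiment and C57BL/6J in the warm experiment and in all quadriceps. One set was moved to 10 °C (cold exposure) in steps through milder cold, the other to 34 °C (warm exposure) for 4 weeks, and each set had its own controls at 22 °C (room temperature, RT). The labels give an age of 11 weeks for the cold experiment with its controls, apart from quadriceps, and of 12 weeks for the warm experiment and all quadriceps. Most libraries came from pooled mice, whereas bone marrow and spinal cord libraries came from single mice. The 10 °C comparison covered interscapular brown fat (iBAT), inguinal subcutaneous fat (ingSAT), perigonadal visceral fat (pgVAT), quadriceps, liver, ileum, spleen, bone marrow, spinal cord, brain and hypothalamus. The 34 °C comparison covered iBAT, quadriceps, liver, ileum and brain without hypothalamus. Each group held 3 libraries, except bone marrow with 6, spinal cord with 5 and brain at 22 °C in the cold experiment with 2, after a library that carried liver RNA was left out. Totals of the 105 libraries used ran from 4262403 to 62880248 counts.

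Complement is a set of plasma and tissue proteins that mark microbes, dying cells and immune complexes for removal. The classical pathway starts when C1q binds its target, the lectin pathway when sugar-binding proteins activate the MASP proteases, and both cleave C4 and then C3. The alternative pathway amplifies C3 cleavage through factor B and factor D. Factor D was first described in fat cells as adipsin, most circulating C3 comes from the liver, and C1q is made largely by macrophages and microglia.

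Annotation GENCODE M21 on GRCm38, the assembly also called mm10, places the C1q chain genes side by side on the minus strand of chromosome 4: C1qb at chr4:136880129-136886187, C1qc at chr4:136889804-136893065 and C1qa at chr4:136895917-136898803. C4b lies at chr17:34728380-34743882, Cfb at chr17:34856374-34862518 and C3 at chr17:57203970-57228136, all on the minus strand. Cfd lies on the plus strand at chr10:79890853-79892655, Masp1 on the minus strand at chr16:23449417-23520815 and Serping1 on the minus strand at chr2:84765387-84775444. Reads of C4b are uncertain because the neighbouring C4a is a near-identical copy, and those of Cfb because Gm20547 overlaps it on the same strand. Masp1 overlaps Rtp4, Gm49514 and Gm45338 on the other strand.

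Promoter sequence was at hand for 4 of the 9 genes in the RefSeq table (GRCm38.p6), 250 bases before the start site and 50 after it. All 4 windows are shown, those of C1qb, C1qc, C3 and Cfd. Capitals mark GAGGAA, a core bound by ETS factors such as PU.1, or its reverse complement, and TTGCNNAA, a C/EBP-like motif. All windows are printed in the direction of transcription, and motifs were searched on both strands.
C1qb (minus strand, chr4:136886151-136886450): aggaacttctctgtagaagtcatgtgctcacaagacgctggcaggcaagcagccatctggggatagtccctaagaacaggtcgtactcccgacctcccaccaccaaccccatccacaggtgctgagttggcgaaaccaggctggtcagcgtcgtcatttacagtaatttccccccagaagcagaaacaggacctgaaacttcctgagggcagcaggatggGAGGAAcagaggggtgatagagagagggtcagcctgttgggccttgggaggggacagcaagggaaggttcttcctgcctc
C1qc (minus strand, chr4:136892865-136893164): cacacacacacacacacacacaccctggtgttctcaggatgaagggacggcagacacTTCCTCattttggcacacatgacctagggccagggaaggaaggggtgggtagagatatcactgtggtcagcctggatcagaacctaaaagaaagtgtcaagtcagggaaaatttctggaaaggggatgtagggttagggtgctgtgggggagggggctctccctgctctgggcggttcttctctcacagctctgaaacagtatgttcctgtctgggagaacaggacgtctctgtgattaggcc
C3 (minus strand, chr17:57228087-57228386): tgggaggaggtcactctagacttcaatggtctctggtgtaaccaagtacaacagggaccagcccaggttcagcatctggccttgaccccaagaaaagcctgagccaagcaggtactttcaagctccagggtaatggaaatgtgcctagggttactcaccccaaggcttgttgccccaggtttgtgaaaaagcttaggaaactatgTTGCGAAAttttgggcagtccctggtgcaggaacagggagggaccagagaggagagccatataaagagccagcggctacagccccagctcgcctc
Cfd (plus strand, chr10:79890603-79890902): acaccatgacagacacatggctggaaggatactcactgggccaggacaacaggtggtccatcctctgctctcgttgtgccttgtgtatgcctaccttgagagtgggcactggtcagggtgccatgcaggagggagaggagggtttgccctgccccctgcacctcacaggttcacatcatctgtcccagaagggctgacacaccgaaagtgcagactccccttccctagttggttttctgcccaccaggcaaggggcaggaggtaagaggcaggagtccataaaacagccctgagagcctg
GAGGAA begins at position -30 in the C1qb window and, on the opposite strand, at position -193 in the C1qc window, and 28.3% of 32851 promoter windows hold it. TTGCNNAA begins at position -45 in the C3 window and is held by 10.8% of windows. CCAAT, present in 37.4% of all windows, was in none of the 4 windows. TATAAA, present in 13.6%, was found in the C3 window alone among the 4. These matches describe letters and not bound sites.

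Levels at 22 °C separated the genes by tissue. They are given as CPM, counts scaled to each library's total after TMM correction, for the control libraries of the cold experiment. Each tissue was scaled within its own comparison, and bone marrow, spinal cord and quadriceps came from other count tables than the remaining 8 tissues, so the orders below are descriptions with no test. Liver had the highest mean of C3, Cfb, Masp1 and Serping1, and ingSAT the highest of Cfd and C4b. Spleen had the highest mean of each C1q chain.

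**Figure D1:**
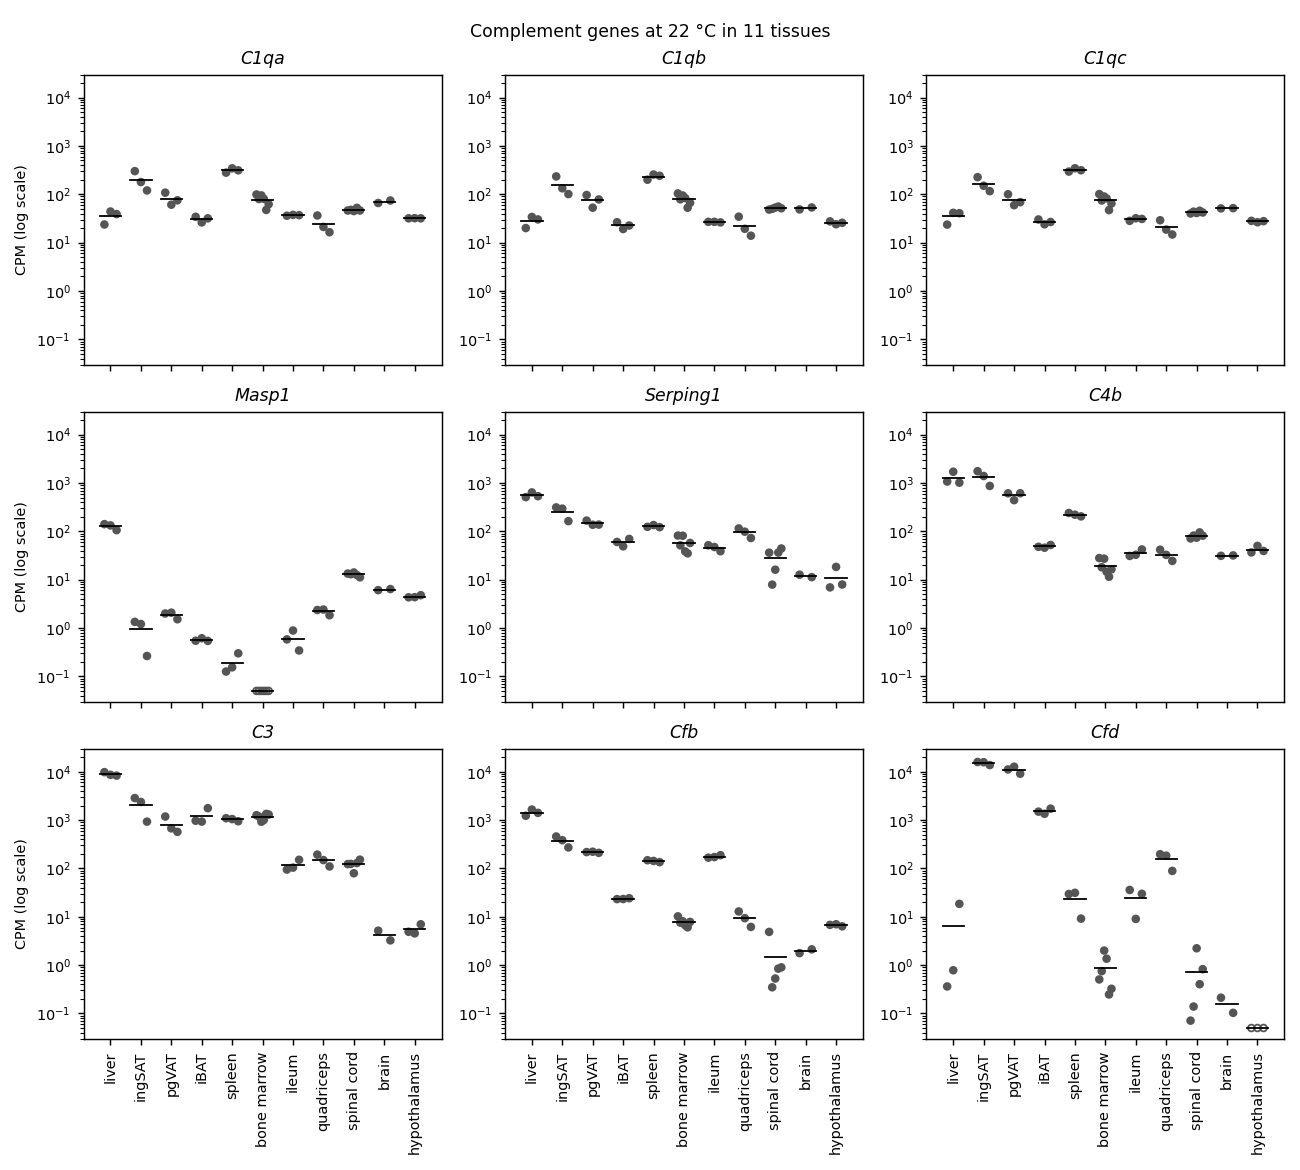
CPM of each complement gene (log scale) in the 22 °C libraries of 11 tissues. Points are libraries and lines are means, with open points at the foot for libraries listed at 0. C3 stood at 8323 to 9829 in liver and under 10 in brain and hypothalamus, and Cfd at 9106 or more in ingSAT and pgVAT.

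C3, the hub of all pathways, was 8932 CPM in liver, 4.35 times the mean of ingSAT (2055), and these libraries stood apart. IngSAT, iBAT (1223), bone marrow (1171), spleen (1030) and pgVAT (810.9) followed, and libraries of neighbours in this order overlapped. After a gap of 5.38 times came quadriceps (150.7), spinal cord (121.5) and ileum (116.8), which overlapped in order. Hypothalamus (5.48) and brain (4.21) were lowest, 21.3 times under ileum at the nearest.

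Cfd, the protease that cleaves factor B, was 15160 CPM in ingSAT, 10990 in pgVAT and 1525 in iBAT, each apart from the next. Quadriceps held 156.7 CPM, ileum 24.95 and spleen 23.37. In the liver, 2 of 3 control libraries had 0.362 and 0.783 CPM, whereas replicate 3 had 18.5. That library also had a summed adipocyte marker level of 217 CPM, the upper end of a range of 38.0 to 217 in the liver controls. All 6 brain libraries of the warm experiment had 0 counts of Cfd, which allows up to 0.0612 CPM in the shallowest of them (3 counts, counting error only).

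Factor B, encoded by Cfb, was 1431 CPM in liver, 371.2 in ingSAT, 216.5 in pgVAT, 175.4 in ileum and 142.0 in spleen, each apart from the next. Masp1, the lectin pathway protease, was 126.4 CPM in liver and then highest in the nervous system, with 12.82 in spinal cord, 6.24 in brain and 4.48 in hypothalamus, each apart from the next. It had 0 counts in all 12 bone marrow libraries, which allows up to 0.192 CPM in the shallowest. Serping1, the inhibitor of C1 and the MASP proteases, was 561.4 CPM in liver, 256.8 in ingSAT and 147.3 in pgVAT, the last pair overlapping. C4b was 1340 CPM in ingSAT and 1267 in liver, which overlapped, then 555.9 in pgVAT and 221.5 in spleen, both apart.

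The C1q chains, each encoded by a gene of its own, were found together in every tissue. C1qa was 312.6 CPM in spleen and 200.1 in ingSAT, with libraries that overlapped, and then 81.47 in pgVAT. Per kilobase of exon, C1qa made up 40.2% to 49.6% of the 3 chains in the 47 libraries of the largest table, C1qb 30.1% to 40.0% and C1qc 18.2% to 25.2%. In spinal cord C1qa made up 36.9% to 42.0% and C1qb 40.1% to 44.2%, ranges that overlapped, and C1qc had the smallest share in each of the 4 tables. These shares depend on the joined exon lengths used, 1040 bases for C1qa, 1088 for C1qb and 1931 for C1qc. In CPM, not divided by length, C1qc had the highest mean of the chains in spleen (318.4) and the lowest in quadriceps (20.77). Over the 8 tissues of the largest table at 22 °C, likeness of mean log2 CPM was ranked among 15712 genes. Most like C1qa were C1qb (Pearson r = 0.996), C1qc (0.993) and Fcgr1 (0.985), a macrophage Fc receptor. The tissues were sequenced as separate libraries, 23 in all, and this likeness is a description. Adipoq, the adipocyte hormone, was most like Cfd (0.991), C1ra, a classical pathway protease, most like Serping1 (0.989) and Nr1h3, a lipid-sensing nuclear receptor, most like C3 (0.970). For Cfb it was Mocs1 (0.983), for C4b Pros1 (0.960) and for Masp1 Cbs (0.975).

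Changes were tested with edgeR's quasi-likelihood method, and a gene counted as called when its p, before adjustment, did not exceed 0.05 and its fold change was above 1.5. At 10 °C, 12 of the 91 pairs of gene and tissue that could be tested were called, 11 lower and 1 higher, in 4 of 11 tissues. At 34 °C, 3 of 40 pairs were called, all in iBAT. The share of all tested genes called ran from 0.271% in spinal cord to 16.3% in ingSAT at 10 °C. At 34 °C it ran from 0.193% in brain to 19.4% in iBAT, so these counts are to be read tissue by tissue.

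**Figure D2:**
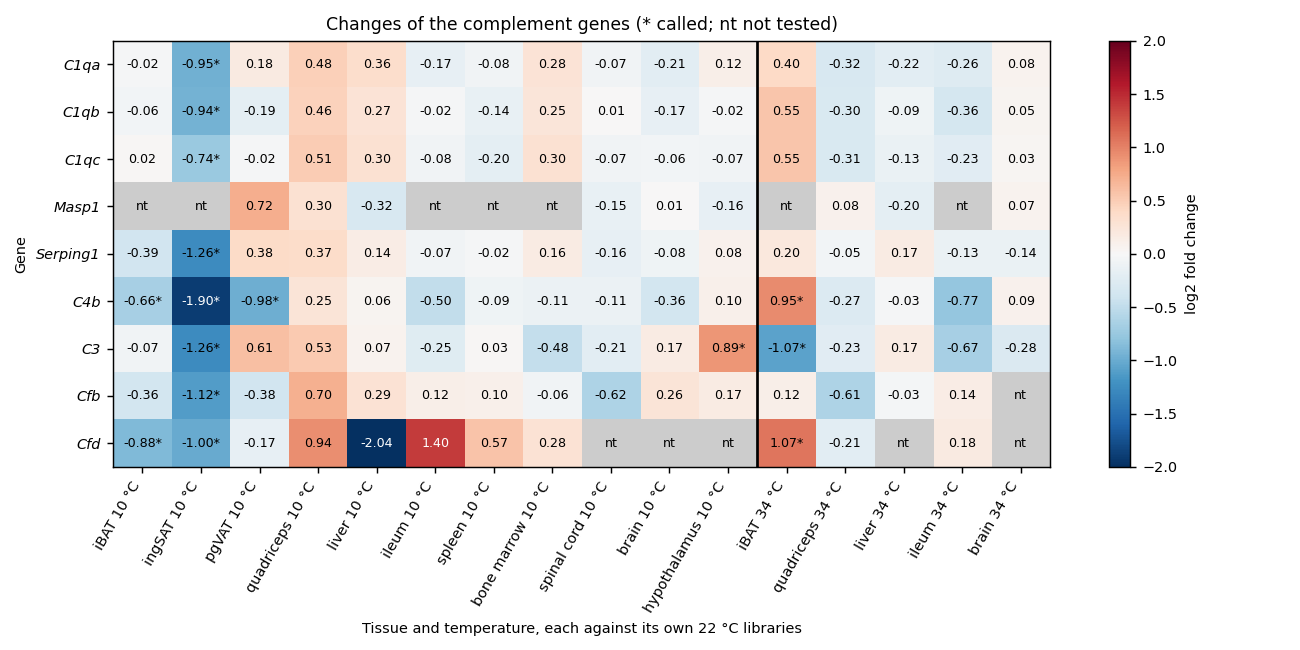
Log2 fold change of each gene (rows) in each tissue at 10 °C or 34 °C against its own 22 °C libraries (columns), with asterisks for called changes and grey for genes too low to test. In the ingSAT column at 10 °C the 8 tested genes are blue, from -0.74 to -1.90, and Masp1 is grey, and colours are capped at 2 either way.

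In ingSAT, the fat depot that browns in the cold, all 8 tested complement genes fell at 10 °C, while 16.3% of all genes tested were called and 9.14% were called lower. Their median log2 change was -1.06, against -0.00949 over all genes. Masp1 was too low to test. Groups of 5 of the 8 genes did not overlap, all lower in the cold, where 16.4% of all genes were lower without overlap.

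C4b had the largest estimate. This gene encodes C4, which is cleaved before C3. It measured 1754, 1398 and 870 CPM at 22 °C and 493, 265 and 321 at 10 °C, so that every cold library was below every control. The log2 change was -1.90 ± 0.34 (SE, n = 3 and 3; adjusted p = 0.0237, edgeR). Serping1 went from 313, 295 and 163 CPM to 145, 87.3 and 90.1, again without overlap, a log2 change of -1.26 ± 0.31 (adjusted p = 0.0547).

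The alternative pathway genes fell as well. Cfd was 15943, 15755 and 13776 CPM at 22 °C and 10015, 6380 and 6293 at 10 °C, with tight controls and no overlap (log2 change -1.0 ± 0.28, adjusted p = 0.0724). Cfb was 458, 384 and 272 CPM against 220, 141 and 152, also without overlap (-1.12 ± 0.25, adjusted p = 0.0442). C3 was 2861, 2374 and 930 CPM against 1126, 769 and 687. Replicate 3 of the controls lay under the highest cold library, and the change was -1.26 ± 0.42 (adjusted p = 0.113).

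The C1q chains, which form the recognition unit of C1, had smaller estimates. C1qa was 301, 179 and 120 CPM at 22 °C and 127, 83.2 and 99.2 at 10 °C, with 1 cold library above the lowest control (log2 change -0.95 ± 0.34, adjusted p = 0.124). C1qb was 234, 133 and 101 CPM against 99, 65 and 79, just without overlap (-0.94 ± 0.32, adjusted p = 0.115). C1qc was 226, 150 and 116 CPM against 119, 80.1 and 96.2, with the highest cold library above the lowest control (-0.74 ± 0.27, adjusted p = 0.131). Only C4b and Cfb had an adjusted p under 0.05, a limit passed by 7.51% of all genes in this tissue.

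**Figure D3:**
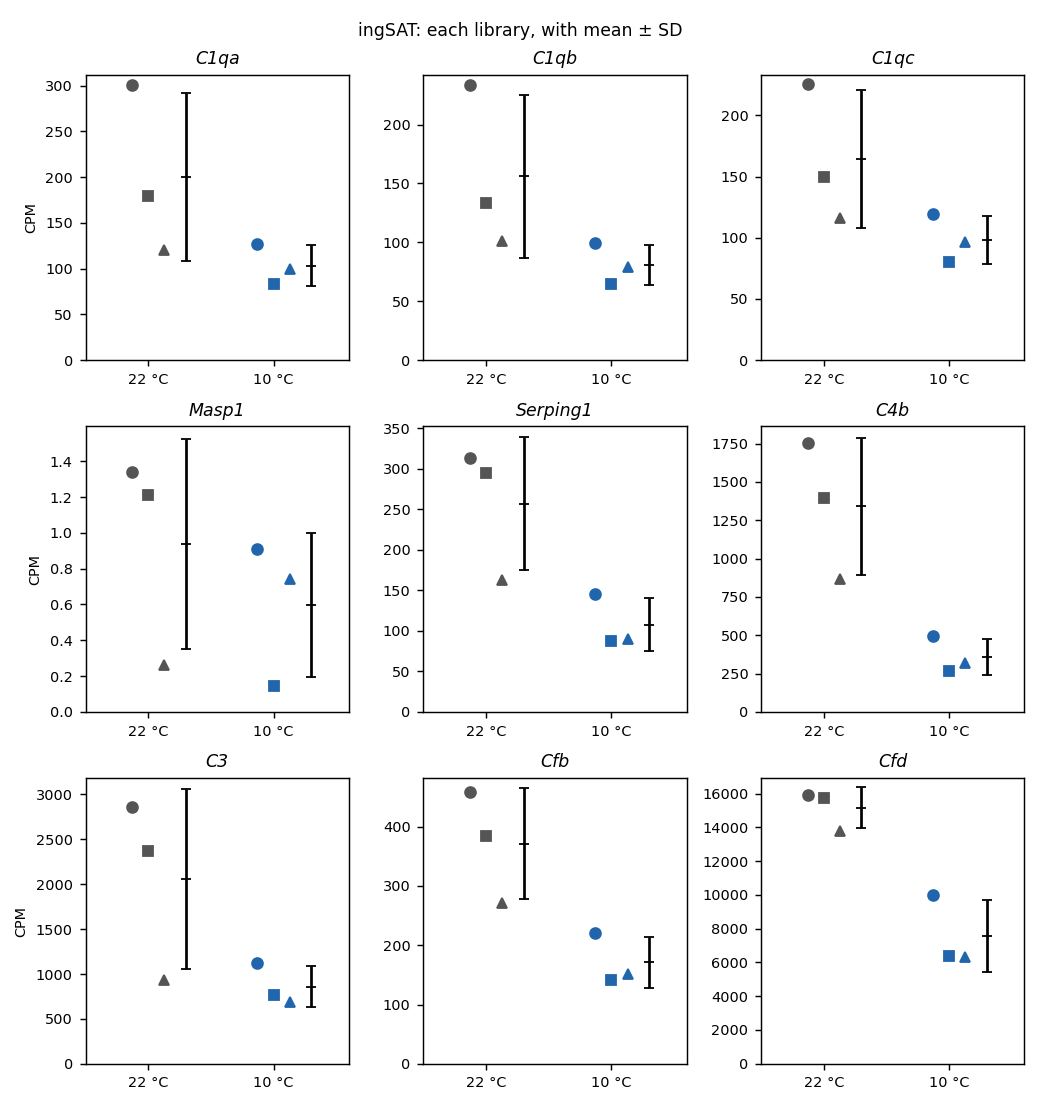
CPM of each gene in ingSAT at 22 °C (grey) and 10 °C (blue), where circles, squares and triangles are replicates 1, 2 and 3 and bars give mean ± SD. C4b, Cfb, Cfd, Serping1 and C1qb do not overlap, and the lowest control is replicate 3 for all 9 genes.

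Marker lists of other cells moved in the same libraries. The summed fibroblast list was 18764, 12880 and 5607 CPM at 22 °C and 5868, 3271 and 4071 at 10 °C, with 5 of its 8 genes called lower. The macrophage list was 1687, 1129 and 896 CPM against 931, 760 and 754, with 4 of 10 genes called lower. The brown adipocyte list ran from 145 to 197 CPM at 22 °C and from 2109 to 2669 at 10 °C, with 4 of 4 genes called higher. No marker of these 3 lists was at 0. The adipocyte list overlapped between the groups, with 19179 to 27215 CPM at 22 °C and 25357 to 29271 at 10 °C. Of its 8 genes 1 was called higher and 1 lower. In whole tissue, fewer cells of a type and less RNA per cell cannot be told apart, and the part of these lists in the falls was not tested. Without control replicate 1, which had the highest level of each tested gene, 4 of the 8 calls remained, those of C4b, Cfb, Cfd and Serping1. Without cold replicate 2, or without cold replicate 3, 3 remained, C4b, Cfb and Serping1.

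**Figure D4:**
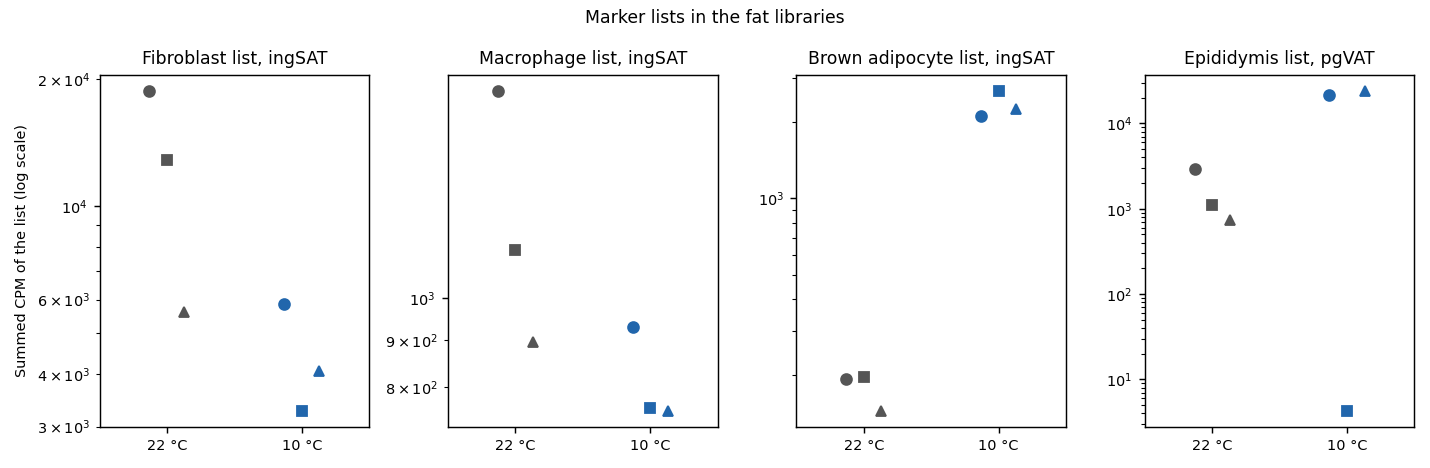
Summed CPM (log scale) of the fibroblast, macrophage and brown adipocyte lists in ingSAT and of the epididymis list in pgVAT, per library at 22 °C (grey) and 10 °C (blue), with circles, squares and triangles for replicates 1, 2 and 3. In pgVAT, cold replicates 1 and 3 stand at 21372 and 24313 CPM and cold replicate 2 at 4.29.

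In iBAT at 10 °C, Cfd and C4b fell, 2 of 8 tested members, beside 13.2% of all genes called and 7.24% called lower. The share with an adjusted p under 0.05 was 11.3%, and 16.8% were lower without overlap. Cfd was 1498, 1352 and 1727 CPM at 22 °C and 895, 913 and 685 at 10 °C, without overlap (log2 change -0.88 ± 0.17, adjusted p = 0.0139, edgeR). C4b was 47.9, 45.9 and 52.3 CPM against 36.3, 33.4 and 22.6, without overlap (-0.66 ± 0.17, adjusted p = 0.0385). Without cold replicate 3, C4b was no longer called. Cfb was 23.2, 23.3 and 24.2 CPM against 19.4, 18.7 and 17, also without overlap but under the fold limit (-0.36 ± 0.11, adjusted p = 0.073). The 3 C1q chains differed by -0.06 to 0.02 on the log2 scale, and C3 by -0.07 ± 0.25. The fibroblast list ran from 1439 to 1870 CPM at 22 °C and from 901 to 1294 at 10 °C, and the skeletal muscle list from 5906 to 8817 and from 2387 to 4956. The hepatocyte list ran from 61.2 to 110 CPM at 22 °C and from 2.61 to 3.51 at 10 °C, with 8 of 10 genes called lower and 1 called higher. The adipocyte list ran from 15006 to 16651 CPM at 22 °C and from 15841 to 17022 at 10 °C, with 0 of 8 genes called. The epididymis list ran from 0.5 to 0.839 CPM at 22 °C and from 4.35 to 39.7 at 10 °C, with 4 of 4 tested genes called higher. Their part in these falls was not tested.

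At 34 °C iBAT showed a called rise of Cfd and C4b and a fall of C3, 3 of 8 tested members. Of all genes 19.4% were called, 12.2% higher and 7.19% lower, and 28.9% had an adjusted p under 0.05. Cfd was 1402, 1005 and 1171 CPM at 22 °C and 2871, 1852 and 2776 at 34 °C, every warm library above every control (log2 change 1.07 ± 0.20, adjusted p = 0.0094, edgeR). C3 was 1374, 1004 and 1355 CPM against 558, 484 and 740, all warm libraries lower (-1.07 ± 0.19, adjusted p = 0.00824). C4b was 24.3, 81.2 and 50 CPM against 126, 77.0 and 98.0, with overlap (0.95 ± 0.40, adjusted p = 0.109). Without overlap, 24.1% of all genes were higher and 24.6% lower in this tissue.

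**Figure D5:**
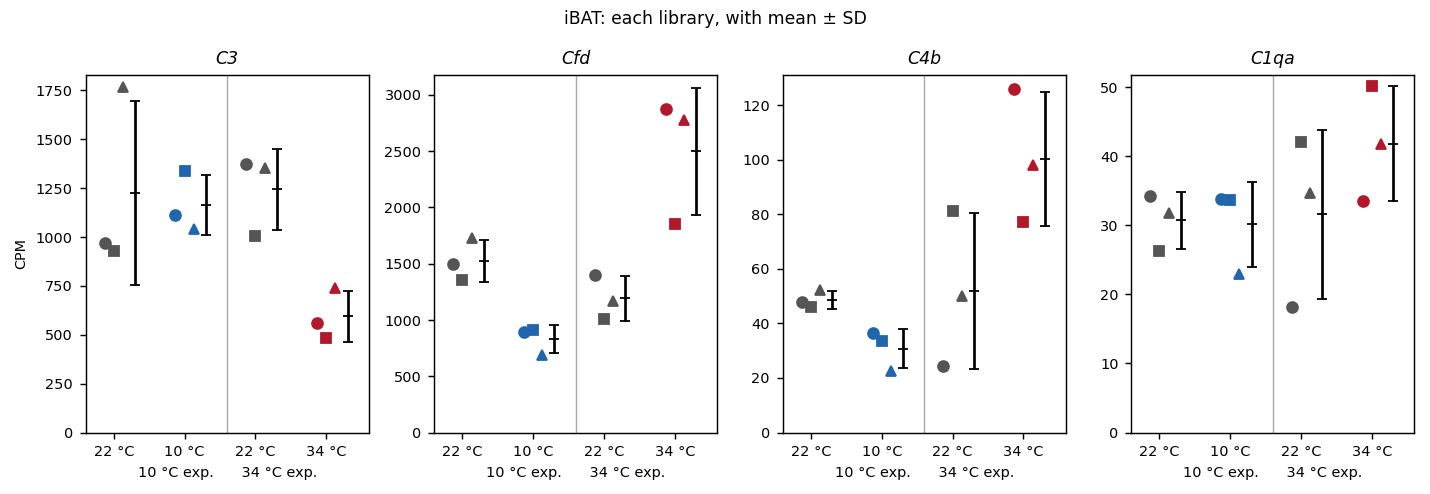
CPM of C3, Cfd, C4b and C1qa in iBAT in the 10 °C experiment (left of each grey line) and the 34 °C experiment (right), per library with mean ± SD and with circles, squares and triangles for replicates 1, 2 and 3. Cfd is at 685 to 913 at 10 °C and at 1852 to 2871 at 34 °C, below and above its own controls.

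Cfd and C4b were thus lower than their own controls at 10 °C and higher at 34 °C. The 2 experiments had separate controls and library kits, and the difference between them was not tested. The call of C3 and that of Cfd at 34 °C remained whichever library was left out, whereas C4b lost its call without control replicate 1 or 3 or warm replicate 1 or 3. The macrophage list was 82.3 to 132 CPM at 22 °C and 167 to 260 at 34 °C, with 6 of 9 genes called higher, and the log2 difference of C1qc was 0.55 ± 0.23, with a fold under 1.5. The fibroblast list was 999 to 1582 CPM against 1832 to 2005, with 1 of 8 genes called higher, and the brown adipocyte list 10097 to 13646 against 5328 to 6664, with 2 of 4 called lower. The skeletal muscle list was 2.83, 4518 and 8.41 CPM in the controls and 3539, 988 and 1133 at 34 °C. The adipocyte list ran from 16352 to 18568 CPM in the controls and from 13535 to 16367 at 34 °C, with 1 of 8 genes called higher. Without control replicate 2, 6 members were called, while calls over all genes went from 2392 to 2800. The part of these lists was not tested.

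In pgVAT at 10 °C, C4b was the single call among 9 members, beside 7.94% of all genes called, 3.47% called lower and 0% with an adjusted p under 0.05. It was 612, 442 and 614 CPM at 22 °C and 167, 422 and 256 at 10 °C (log2 change -0.98 ± 0.42, adjusted p = 0.593, edgeR), without overlap but with cold replicate 2 close to the lowest control, in a tissue where 6.78% of all genes were lower without overlap. The call remained without cold replicate 2 and was lost when any other library was left out. Cold replicates 1 and 3 carried the epididymis list at 21372 and 24313 CPM, against 738 to 2933 in the controls and 4.29 in cold replicate 2. Their adipocyte list was 13681 and 10299 CPM, against 21791 to 34547 in the controls. Cfd was 5754 and 5538 CPM in these libraries and 18021 in cold replicate 2, around controls of 9106 to 12705. With cold replicate 2 alone the log2 difference of C4b was -0.38. That fit has 1 cold library, which is assumed to vary like the 3 controls, from which alone the spread was taken.

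In bone marrow C3 was lower at 10 °C by less than the fold limit, and none of the 8 tested members was called, beside 1.29% of all genes. C3 ran from 926 to 1345 CPM at 22 °C, with a median of 1226, and from 755 to 886 at 10 °C, with a median of 843, without overlap, as 3.17% of all genes were. The log2 change was -0.48 ± 0.08 (n = 6 and 6, adjusted p = 0.00372, edgeR), and 19% of all genes had an adjusted p under 0.05. The neutrophil list was 39955 to 57990 CPM at 22 °C and 36974 to 39222 at 10 °C, with no gene of 7 called. Its part was not tested.

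In quadriceps at 10 °C no member of 9 was called, beside 3.83% of all genes, and all 9 log2 changes were positive. The median log2 change of all genes was 0.025, and the share of them with a positive change is not reported here. Cfd was 197, 184 and 88.9 CPM at 22 °C and 330, 416 and 154 at 10 °C, with overlap (0.94 ± 0.40, adjusted p = 0.468, edgeR). C3 was 193, 149 and 110 CPM against 220, 313 and 120 (0.53 ± 0.34, adjusted p = 0.551), so that cold replicate 3 lay within the controls for both genes. The adipocyte list was 265, 354 and 237 CPM against 819, 909 and 325, with 7 of 8 genes called higher. Cold replicate 1 also carried the epididymis list at 242 CPM, against at most 0.148 in the other libraries. A list of pancreas acinar markers ran from 0 to 1387 CPM in the controls and from 0.0165 to 0.0355 at 10 °C. No member had an unadjusted p under 0.05, while the exact test and DESeq2 each called 1. Without cold replicate 3, 5 members were called, while calls over all genes went from 454 to 985. The part of these lists was not tested.

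The liver, with the highest C3, had no call among 9 members at 10 °C, beside 3.28% of all genes. C3 was 9829, 8644 and 8323 CPM at 22 °C and 9281, 9230 and 9659 at 10 °C (0.07 ± 0.10, adjusted p = 0.725, edgeR), a difference under the spread of the controls. Cfb was 1230, 1652 and 1411 CPM against 1733, 1606 and 1909, with overlap (0.29 ± 0.12, adjusted p = 0.245). Masp1 was 141, 133 and 106 CPM against 102, 108 and 94.7 (-0.32 ± 0.11, adjusted p = 0.184). DESeq2 and the exact test called 0 as well, and 2 members, Masp1 and Cfb, had an unadjusted p under 0.05.

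Ileum (2.71% of all genes called), spleen (2.68%), spinal cord (0.271%) and brain (0.801%) had no called member at 10 °C. C4b did not overlap in ileum, at 31, 32.8 and 42.2 CPM against 25.5, 22.6 and 27.2 (-0.50 ± 0.13, adjusted p = 0.159, edgeR), nor in brain, at 31.2 and 31.8 against 24.9, 26.1 and 22.7 (-0.36 ± 0.09, adjusted p = 0.235). In these tissues 10.5% and 12.4% of all genes were lower without overlap. An unadjusted p under 0.05 was found for 2 members each in ileum and brain, C1qa and C4b, and for 0 in spleen and spinal cord, and of the other tools only the exact test made a call, 1 in ileum. Lower without overlap were 2 members in ileum, C4b and C1qa, and 4 in brain, C4b and the C1q chains, where 2 controls stood against 3 cold libraries. In the spleen, with the highest C1q, C1qa was 280, 344 and 313 CPM at 22 °C and 302, 267 and 321 at 10 °C (-0.08 ± 0.11, adjusted p = 0.81), with overlap. Cfd in ileum was 35.9, 9.04 and 29.9 CPM against 102, 77.8 and 16.9, with overlap (1.40 ± 0.67, adjusted p = 0.338). The adipocyte list in these libraries was 159, 107 and 171 CPM against 381, 257 and 163, with 3 of 8 genes called higher, and its part was not tested.

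In the nervous system, where microglia make C1q, no C1q chain was called. In brain C1qa was 66.0 and 74.4 CPM at 22 °C and 61.4, 61.4 and 59.5 at 10 °C (-0.21 ± 0.08, adjusted p = 0.459, edgeR), and in hypothalamus 31.8, 32 and 31.8 against 33, 34.9 and 36.2 (0.12 ± 0.06, adjusted p = 0.807). In spinal cord it was 46.1, 47.6, 45.0, 52.4 and 46.2 CPM against 41.6, 42.2, 43.3, 56.6 and 43.5 (-0.07 ± 0.08, adjusted p = 0.841). The groups of spinal cord overlapped through cold replicate 4, the highest of all 10. Masp1 there was 13.4, 13, 14.1, 12.5 and 11.2 CPM against 12.3, 12.1, 10.8, 10.5 and 12.2, with overlap (-0.15 ± 0.08, adjusted p = 0.78).

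In hypothalamus at 10 °C, C3 was called higher, 1 of 8 members beside 0.578% of all genes called, 0.399% called higher and 0% with an adjusted p under 0.05. It was 4.90, 4.54 and 7.0 CPM at 22 °C and 5.80, 5.80 and 19.7 at 10 °C (0.89 ± 0.40, adjusted p = 0.801, edgeR), so that cold replicate 3 alone stood high. That library also had the hepatocyte list at 328 CPM, against 41.9 to 109 in the others, and without it the C3 change was 0.06. The call was also lost without control replicate 1 or 2. In nervous tissue the hepatocyte list is not specific to liver. It stood at 1177 and 789 CPM in the brain controls kept, where Alb was 1.57 and 2.88 CPM, all scaled without TMM correction. The neutrophil list in hypothalamus ran from 1.61 to 2.02 CPM at 22 °C and from 1.86 to 15.7 at 10 °C. The part of these lists was not tested.

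At 34 °C none of the tested members was called in quadriceps, liver, ileum or brain, where 1.21%, 3.38%, 2.83% and 0.193% of all genes were. No member there had an unadjusted p under 0.05 in edgeR, and DESeq2 made 1 call, in ileum. C4b in ileum was 41.0, 17.1 and 42.5 CPM at 22 °C and 27.2, 17.5 and 14.1 at 34 °C, with overlap (-0.77 ± 0.39, adjusted p = 0.594, edgeR). In quadriceps 8 of the 9 members had a negative log2 difference, and Cfd was 243, 159 and 101 CPM against 184, 88.6 and 163, with overlap (-0.21 ± 0.34, adjusted p = 0.9999, edgeR). The median over all genes in quadriceps was -0.000374, and the share of them with a negative difference is not reported here. C3 in liver was 8963, 7880 and 7075 CPM against 8369, 9429 and 9108, with overlap (0.17 ± 0.11, adjusted p = 0.618). Serping1 in liver was 999, 991 and 955 CPM against 1062, 1065 and 1180, without overlap, as 8.54% of all genes were higher (0.17 ± 0.08, adjusted p = 0.497).

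Whether a change differed between tissues was tested as an interaction. Between ingSAT and pgVAT at 10 °C, Serping1, C3 and C1qa were called, 3 of 9 beside 13.7% of all genes. The difference in log2 change was -1.63 ± 0.45 for Serping1 (adjusted p = 0.138, edgeR), -1.85 ± 0.68 for C3 (0.232) and -1.13 ± 0.50 for C1qa (0.303). Between iBAT and ingSAT, C4b alone was called (9.34% of all genes), at 1.25 ± 0.47 (adjusted p = 0.352), and between iBAT and pgVAT none was (13.8%). In the tests with pgVAT, its cold replicates 1 and 3 carried the epididymis list at 21372 and 24313 CPM. A difference in tissue content and a difference in the change cannot be told apart there, and the part of that list was not tested. The C4b call was lost without ingSAT control replicate 1 or cold replicate 2, that of C3 without pgVAT cold replicate 2, and that of C1qa when any 1 of 7 libraries was left out. At 34 °C the change of C4b in iBAT exceeded that in ileum by 1.71 ± 0.54 (adjusted p = 0.0427), with C1qb and C1qc also called, 3 of 9 beside 19.4% of all genes. The call of C4b was kept whichever library was left out, and those of C1qb and C1qc were not. C3 alone was called between iBAT and liver (14% of all genes), at -1.23 ± 0.43 (adjusted p = 0.0877). No member was called between ileum and liver (5.86%), and Cfb alone between quadriceps at 34 °C and at 10 °C (6.32%), at -1.31 ± 0.59 (adjusted p = 0.386), a call lost when any 1 of 7 libraries was left out. Library kits may differ between these quadriceps experiments.

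A further 46 complement genes were listed. In ingSAT at 10 °C, 10 of the 31 tested fell and none rose, 1 with an adjusted p under 0.05, where 9.14% of all genes were called lower and 7.51% had such an adjusted p. C2, the classical pathway partner of C4, fell from 258 ± 63.6 to 75.4 ± 16.3 CPM (SD, n = 3 each; log2 change -1.78, adjusted p = 0.00986, edgeR). The C1 proteases C1s1 (-1.06) and C1ra (-1.28) and the terminal component C7 (-1.35) fell without overlap, with adjusted p of 0.0527, 0.0598 and 0.0601. In iBAT at 10 °C, C1rl (1.0) and Cd59a (0.59), a membrane inhibitor of the terminal complex, rose, and Vtn (-0.89) fell, in 26 tested genes with 2 calls each way, where 13.2% of all genes were called. At 34 °C iBAT had 7 rises and 1 fall among 24 tested, where 12.2% of all genes were called higher and 7.19% lower. Of the 24 tested 5 had an adjusted p under 0.05, where 28.9% of all genes tested did. Clu, the regulator clusterin, rose from 15.8 ± 2.12 to 103 ± 33.8 CPM (log2 change 2.70, adjusted p = 0.00105), with Colec12 (0.75) and Cd93 (0.86), while C1rl fell (-1.33, adjusted p = 0.00103). Elsewhere at 10 °C, Fcnb (-2.55), C5ar1 (-1.22) and Cd59b (-0.74) fell in spleen and Cd59a (-0.98) in pgVAT. At 34 °C C6 fell in liver (-0.70) and rose in ileum (0.76), and Cfi rose in ileum (1.47). None of these changes had an adjusted p under 0.05. Mean Cfi in ileum was 0.775 CPM at 22 °C and 2.15 at 34 °C. Mean Fcnb in spleen was 2.92 CPM at 22 °C and 0.471 at 10 °C. These genes lay near the expression limit and passed it through the group where they were higher, so their calls carry little weight. The neutrophil list in spleen ran from 365 to 734 CPM at 22 °C and from 106 to 130 at 10 °C, with 7 of 7 genes called lower, and its part in the spleen falls was not tested.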

How the data were processed

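Bulk RNA was sequenced from the tissues above. The authors aligned reads to mm10 with STAR, and the deposited values are raw counts per gene made with HTSeq, not scaled. The submitters' notes name STAR 2.5.3a, Picard 1.141 and HTSeq 0.6p1, and the study's methods name other STAR and HTSeq versions. The notes give 34 °C for every sample, so groups came from titles and treatment labels. Library kits and sequencing sites were not the same throughout, but by the study's methods did not differ within a comparison. The wording of the methods gives quadriceps of the cold experiment another kit than the warm experiment, at the same site. For the largest table, Ensembl IDs were matched to gene symbols (21583 of 21647).

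The 16 comparisons were modelled separately in R 4.3.3 using edgeR 4.0.16 (TMM, average log2 CPM above 0, quasi-likelihood F-test, two-sided). p-values were adjusted by Benjamini-Hochberg over all genes tested. Differences between changes were interaction terms in one fit. Quadriceps controls were assigned by column names. The fits were tested on simulated counts. No 2 libraries had identical counts. Alternatives were edgeR's exact test, DESeq2 1.42.0, other scaling and filters, an adjusted p, all controls, each library left out and a replicate block. Other complement genes were named where called without overlap, at most 4 by p, and the 3 genes most like each member by Pearson r. The members and lists were chosen with earlier results of these data known. Where sources do not tie a library to separate animals, p-values measure only the spread between libraries.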

Additional observations from a re-analysis of the deposited data

Results flagged for a closer look

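In groups of 5 or 6 libraries, 1 library stood far from the rest in 6 of 34 groups of a member, where chance gives about 1 in 20. In bone marrow at 10 °C these were C3 (755 CPM, others 839 to 886), C4b (11.9, others 18.2 to 21.6) and Serping1 (38.9, others 65.4 to 77.9), the last pair in the same library. In spinal cord they were C1qa at 10 °C (56.6, others 41.6 to 43.5), Cfb at 22 °C (4.87, others 0.348 to 0.899) and Serping1 at 10 °C (43.6, others 16.2 to 22.7).

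The change of C4b at 34 °C differed between iBAT and ileum by 1.71 on the log2 scale in the interaction test. C1qa was higher in every cold library of hypothalamus (0.12) and lower in every cold library of ileum (-0.17) and brain (-0.21), gaps of 0.29 and 0.33 that were not tested and none of which was called. Of all genes 10.5% in ileum and 12.4% in brain, with 2 controls, were lower without overlap. The share for hypothalamus is not reported here.

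The brain library left out (22 °C, replicate 2) held 37860 CPM of Alb, the liver's albumin gene, against 1.57 and 2.88 in the other brain controls. Of its complement genes 6 were above both of them, at 4654 CPM for C3, 837 for Cfb, 513 for C4b, 304 for Serping1, 58.8 for Masp1 and 0.474 for Cfd. The C1q chains were below both, at 41.06 CPM for C1qa (others 66.53 and 75.33), 28.35 for C1qb (49.01 and 54.11) and 34.51 for C1qc (51.36 and 52.33). CPM in this paragraph was scaled to library totals without TMM correction, so the values of the kept controls differ slightly from those above.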

How the results depend on the processing

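The falls of C4b and Cfb in ingSAT and of Cfd in iBAT at 10 °C, and the changes of C3 and Cfd in iBAT at 34 °C, were called under every alternative run for them. No member that was called changed direction. With an adjusted p under 0.05 as the call, ingSAT had 2 members, pgVAT 0, hypothalamus 0 and bone marrow 1. Calls in pgVAT with cold replicate 2 alone, an alternative chosen after seeing the data, are not counted. The lone cold library is assumed there to vary like the controls. In pgVAT the count was 0 with filterByExpr, with no filter and with the replicate block. In quadriceps at 10 °C it was 1 with the exact test, with DESeq2, with either filter and with all 6 controls, and 2 with library size only. Ileum had 1 at 10 °C with the exact test and 1 at 34 °C with DESeq2, spleen 1 with no filter and hypothalamus 0 with DESeq2. With all 3 brain controls, 2 were called, C3 at -8.86 and Cfb at -7.41, reversed from their values without the library that carried liver RNA. With library size only the median log2 change of all genes was -0.18 in iBAT at 10 °C (-0.024 with TMM), 0.252 in quadriceps at 10 °C (0.025) and 0.298 in iBAT at 34 °C (0.025), where 6 members were then called, 5 higher and 1 lower. It gave 5 called differences between iBAT and ileum, 4 between iBAT and liver and 2 in quadriceps. The shares of all genes called with library size only are not reported here.

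Leaving out each library in turn gave 1 to 2 called members in iBAT at 10 °C, 3 to 8 in ingSAT, 0 to 3 in pgVAT, 0 to 5 in quadriceps, 0 to 1 in liver, 0 to 1 in ileum and 0 to 1 in hypothalamus, and at 34 °C 2 to 6 in iBAT, 0 to 2 in quadriceps, 0 to 2 in ileum and 0 to 1 in brain. Over all genes, calls in these fits ran from 1525 to 1934 in iBAT at 10 °C, 1756 to 3510 in ingSAT and 390 to 3516 in pgVAT. They ran from 311 to 985 in quadriceps and 70 to 183 in hypothalamus at 10 °C, and 2001 to 2800 in iBAT at 34 °C. For the differences, leaving out each library gave 0 to 6 between iBAT and ingSAT, 0 to 1 between iBAT and pgVAT and 1 to 8 between ingSAT and pgVAT. It gave 1 to 4 between iBAT and ileum, 1 to 6 between iBAT and liver, 0 to 1 between ileum and liver and 0 to 3 in quadriceps. The cause of these ranges was not tested. The shares of all genes called in the difference fits are not reported here. Nor are those for liver and ileum at 10 °C, or for quadriceps, ileum and brain at 34 °C. Without these shares the counts of members cannot be weighed. Same-numbered libraries were compared by their deviations from group means, with correlations from -0.689 to 0.429. In none of the 10 comparisons checked was every pair above 0.1. Deviations must cancel within each small group, so this check cannot tell whether the numbers pair the libraries. The replicate block gave 2 called differences between iBAT and ingSAT and ended the calls of C4b in pgVAT and of the C1qa difference between ingSAT and pgVAT. It ended no other call at 10 °C, and was not run for quadriceps or the 34 °C comparisons. Of 3060 values of single members over all alternatives, 2893 kept their side of the threshold, and 130 that were not called changed sign.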
